A study of Mus musculus with 16 samples.

Results

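The 35 aminoacyl-tRNA synthetase genes described here, 19 cytosolic and 16 mitochondrial, were taken by symbol from a count table of 55416 genes, and every one of them was found and passed the filter on low counts in each comparison. The list gives 1 gene for most amino acids in each compartment. RNA-seq had been performed on erythroblasts sorted by Ter119 and CD71 from foetal livers of 8 mouse embryos at E13.5, at stage S1, the stage of colony-forming erythroid progenitors, and at stage S3, that of basophilic erythroblasts. Each embryo gave 1 library per stage, so that 16 libraries were compared. The wild-type (WT) group, Nprl3+/+, held embryos 0 and 8 (male) and 1 and 5 (female). The heterozygous (Het) group, Nprl3+/-, held embryos 3 and 4, both male, and the knockout (KO) group, Nprl3-/-, held embryos 2 (female) and 9 (male). The alleles are germline deletions of the Nprl3 promoter crossed to C57BL/6J, so that the liver stroma and macrophages around the erythroblasts carry the same genotype.

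An aminoacyl-tRNA synthetase joins an amino acid to its tRNA, and this charged tRNA then delivers the amino acid to the ribosome. Cytosolic enzymes serve the ribosomes that make most cellular proteins, globin among them, whereas mitochondrial enzymes, also encoded in the nucleus, serve the separate ribosomes that make a few respiratory chain subunits. Nprl3 is a subunit of GATOR1, which restrains mTORC1 when amino acids are scarce, and several cytosolic synthetase genes are known targets of ATF4, a transcription factor of the amino acid response.

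The count of read pairs per library ran from 20666044 to 37609502. The labels' source field names an embryonic stem cell line, but Klf1, an erythroid transcription factor, measured 397 to 562 CPM, counts scaled to a common library size, at S1 and 1979 to 2528 at S3, and Gata1, another, measured 280 to 356 and 781 to 986. Nprl3 at S1 measured 26.2, 20.9, 22.8 and 33.5 CPM in WT embryos 0, 1, 5 and 8, 12.3 and 12.5 in Het embryos 3 and 4, and 0.306 and 0.653 in KO embryos 2 and 9. At S3 it measured 144 to 216 CPM in WT, 127 and 155 in Het and 111 and 118 in KO, and counts over Nprl3 also take in spliced transcripts that start at the alpha-globin enhancers inside the gene, whose share was not measured here. Embryo 8 stood apart at S1, being the highest of the 8 libraries for 39.0% and the lowest for 30.8% of 8326 genes. WT embryo 1 was the lowest for 32.7%. Globin took 1.07% and 1.00% of the S1 counts of WT embryos 0 and 8 and 0.0738% to 0.306% of the other S1 libraries, while the neutrophil gene Mpo measured 131 and 97.1 CPM in those 2 libraries and 726 to 1221 in the others. In bulk samples of this kind, fewer cells of a type and less RNA per cell cannot be told apart.

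The core of the C/EBP-ATF response element, the sequence to which ATF4 binds with a C/EBP partner, is TGATGNAA. It was searched on both strands in RefSeq promoter windows, which run from 250 bases before to 50 bases after a gene's start. Of the 26 members with a window, 12 cytosolic and 14 mitochondrial, 5 cytosolic genes (41.7%) and 0 mitochondrial genes held it, against 4.51% of 27025 genes. A site of each of these genes is shown in the sense of the gene, with the motif in capitals. These mark which of the searched members hold the motif and can be set beside the KO values. Cars1, Hars1, Lars1, Nars1, Rars1, Vars1, Wars1, Hars2 and Pars2 had no window and were not searched. Where the capitals end in CATCA, the motif lies on the opposite strand. The coordinates are on GRCm39.
Gars1, chr6:55014945-55014974, plus strand: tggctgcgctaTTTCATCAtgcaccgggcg
Aars1, chr8:111760472-111760501, plus strand: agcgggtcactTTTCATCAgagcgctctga
Iars1, chr13:49835602-49835631, plus strand: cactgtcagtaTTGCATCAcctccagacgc
Tars1, chr15:11399741-11399770, minus strand: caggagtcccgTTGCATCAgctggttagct
Yars1, chr4:129083688-129083717, plus strand: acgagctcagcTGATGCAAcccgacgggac
The motif began 30 bases before the start of Gars1, at 10 in Aars1, at 8 in Iars1, at -15 in Tars1 and at 4 in Yars1. Aars1 held a second match, not shown, at -112 on the opposite strand. A match describes these letters only and does not show that ATF4 was bound.

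Levels of different genes were compared as CPM per kilobase of exon. The length was that of all annotated exons of a gene, from 2447 bases in Hars1 to 18102 in Eprs1. Ranks, ratios and sums per kb depend on these lengths. In WT cells at S1 the highest were Farsb, the beta subunit of the phenylalanine enzyme, at 127 ± 13.49 (SD, n = 4), Gars1 for glycine at 120 ± 22.0, Nars1 for asparagine at 112 ± 14.5 and Hars1 for histidine at 101 ± 9.45. Each of these differed from the next by less than 1 SD of the higher one. At S3 the order had changed, with Nars1 first at 274 ± 22.7 and Hars1 next at 193 ± 2.55, which were further apart than either SD. Farsb at 114 ± 16.98 and Gars1 at 113 ± 10.1 followed and differed by less than their SD.

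Most mitochondrial enzymes had lower levels per kb. The highest at S1 were Rars2 for arginine at 38.004 ± 2.03 CPM per kb and Yars2 for tyrosine at 30.8 ± 0.652, and the lowest was Wars2 for tryptophan at 1.55 ± 0.324. For 15 of the 16 mitochondrial enzymes at S1 and all 16 at S3, the cytosolic enzyme of the same amino acid had the higher WT mean per kb, Yars2 at S1 being the exception. There Yars2 stood at 30.8 ± 0.652 CPM per kb and Yars1 at 28.0 ± 5.38, less than the SD of Yars1 apart. Without division by length Yars1 had the higher WT mean, 166 CPM against 96.9. Farsa and Farsb, whose products form 1 cytosolic enzyme, were unequal per kb at S1, at 40.2 ± 4.17 and 127 ± 13.49.

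Which synthetases change as progenitors become basophilic erythroblasts was asked in the 4 WT embryos. The mitochondrial genes were mostly lower at S3, and the cytosolic genes were called in both directions. Of the 16 mitochondrial genes 11 were lower at S3 and 1 was higher, whereas of the 19 cytosolic genes 5 were lower and 7 higher (edgeR's quasi-likelihood test, Benjamini-Hochberg adjusted p under 0.05). Over all 13514 genes tested, 35% were called lower and 30.6% higher. The median log2 fold change was -1.06 for the mitochondrial and -0.09 for the cytosolic genes, and -0.08 for all genes tested. The cytosolic median was 0.09 without embryo 8 and 0.12 without embryos 0 and 8, which was chosen after seeing the data, and the mitochondrial median was then -0.93 to -0.83.

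**Figure D1:**
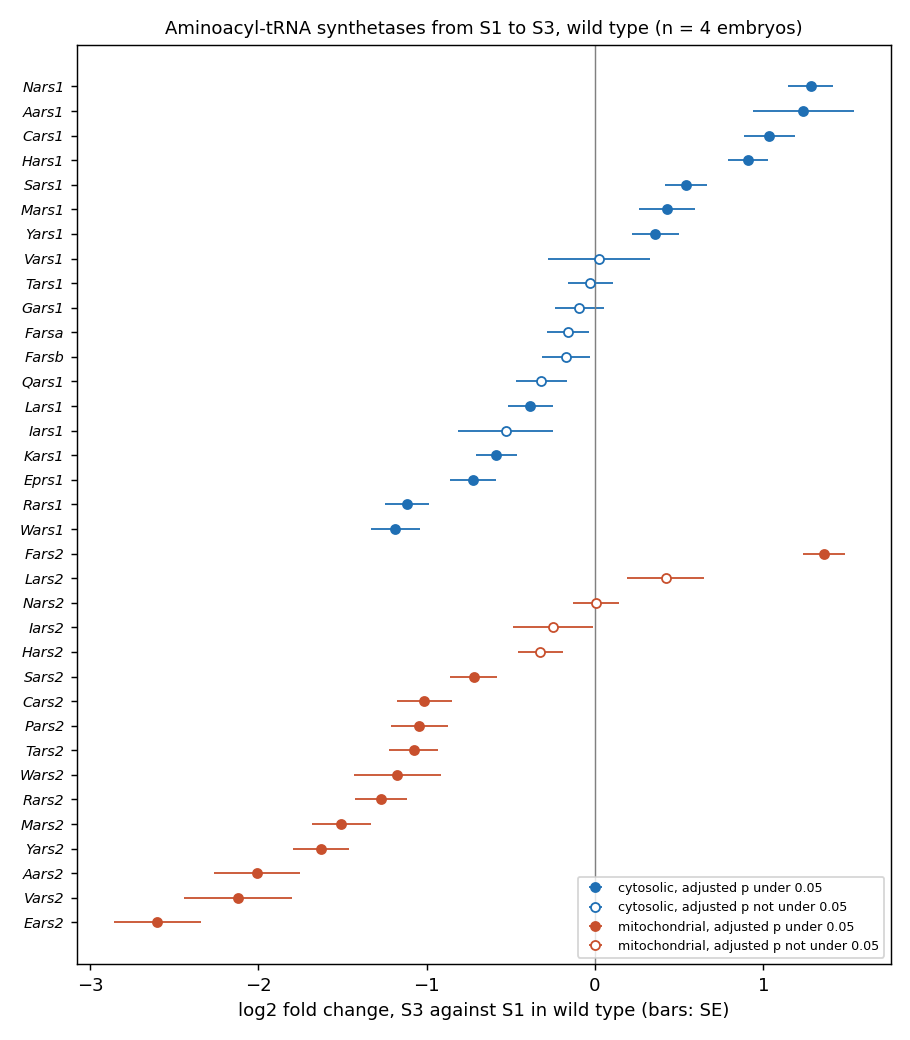
The log2 fold change of each synthetase gene at S3 against S1 in the 4 WT embryos is plotted on the x axis, with its standard error as a bar and filled points for an adjusted p under 0.05. Cytosolic genes spread to both sides of 0, from -1.19 to 1.28, while 13 of 16 mitochondrial genes lie below 0 and Fars2 lies at 1.36.

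The largest fall was that of Ears2, which charges mitochondrial tRNA with glutamate. It measured 14.6, 12.6, 16.1 and 19.1 CPM at S1 and 2.43, 3.47, 2.93 and 1.46 at S3 in WT embryos 0, 1, 5 and 8. Every S3 library lay below every S1 library, and the log2 fold change was -2.60 ± 0.258 (SE, edgeR adjusted p = 1.12e-05). The lowest value, at S3 in embryo 8, belonged to the embryo with the highest at S1.

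Vars2 for valine measured 16.3, 9.86, 17.3 and 32.2 CPM at S1 and 3.86, 3.47, 5.32 and 4.75 at S3 in the same order. Aars2 for alanine measured 19.3, 11.7, 19.9 and 30.8 CPM and then 4.81, 4.86, 5.78 and 4.90. In neither gene did the stages overlap, although the highest WT value at S1 was 3.26 times the lowest in Vars2 and 2.64 times in Aars2. The log2 fold change was -2.12 ± 0.321 for Vars2 (edgeR adjusted p = 2.05e-04) and -2.01 ± 0.257 for Aars2 (edgeR adjusted p = 6.49e-05).

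Yars2 had close values at S1 but not at S3, with 95.0, 95.8, 99.7 and 97.0 CPM at S1 and 27.4, 42.8, 30.04 and 27.2 at S3. Its log2 fold change was -1.63 ± 0.167 (edgeR adjusted p = 1.39e-05). Mars2 for methionine fell by 1.51 ± 0.176 on the log2 scale (edgeR adjusted p = 3.53e-05) and Rars2 fell by 1.27 ± 0.152 (edgeR adjusted p = 4.08e-05). The other mitochondrial genes called lower were Wars2, Tars2, Pars2, Cars2 and Sars2, with log2 fold changes from -1.17 to -0.72. Hars2, Iars2, Nars2 and Lars2, at -0.32, -0.25, 0.01 and 0.42, were not called, but Hars2 was by edgeR with sex, with all 16 libraries in the fit and without WT embryo 1.

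Fars2, the mitochondrial enzyme for phenylalanine, went the other way. It measured 25.8, 25.5, 25.1 and 28.3 CPM at S1 and 69.4, 62.6, 64.6 and 76.1 at S3, so that the stages were far apart and the replicates close. Its rise was 1.36 ± 0.127 on the log2 scale (edgeR adjusted p = 7.75e-06), a 2.57-fold rise. Neither subunit of the cytosolic enzyme for the same amino acid was called, Farsa having a log2 fold change of -0.16 ± 0.124 and Farsb of -0.17 ± 0.142 (edgeR adjusted p = 0.280 and 0.304). In Fars2, 8.72% of the exon bases are shared with Nrn1 on the opposite strand, and read pairs over such bases were not counted.

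Among the cytosolic enzymes, Nars1 rose most. It measured 502, 413, 466 and 563 CPM at S1 and 1082, 1236, 1154 and 1309 at S3, without overlap. This was a log2 fold change of 1.28 ± 0.136 (edgeR adjusted p = 1.81e-05). Aars1 rose by 1.24 ± 0.300, from 157, 80.2, 143 and 287 CPM to 425, 334, 395 and 418 (edgeR adjusted p = 0.00416). Cars1 for cysteine, Hars1, Sars1 for serine, Mars1 and Yars1 were also called higher, with log2 fold changes of 1.04, 0.91, 0.54, 0.43 and 0.36.

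Wars1 for tryptophan and Rars1 for arginine fell most among the cytosolic genes, by 1.19 ± 0.147 and 1.12 ± 0.132 on the log2 scale (edgeR adjusted p = 5.24e-05 and 3.84e-05). Eprs1, a single protein that charges both glutamate and proline tRNA, fell by 0.73, Kars1 for lysine by 0.59 and Lars1 for leucine by 0.38. Vars1, Tars1, Gars1, Qars1 and Iars1 were not called, but Iars1 was with the embryo as a block and by edgeR with sex, and Qars1 by edgeR with sex, with all 16 libraries in the fit and without WT embryo 1. Of the 7 members that sit in the multisynthetase complex, a cytosolic assembly, 4 were called lower (Eprs1, Kars1, Rars1 and Lars1) and 1 higher (Mars1), with a median of -0.53, against 35% and 30.6% of all genes. The call of Lars1 was lost with no filter and without WT embryo 0, 5 or 8 (-0.19 without embryo 8), and that of Mars1 by DESeq2, with no filter and without embryo 0, 1 or 5. Gars1 and Kars1 each encode the enzyme of both compartments, and their log2 fold changes were -0.09 ± 0.146 (edgeR adjusted p = 0.598) and -0.59 ± 0.121 (edgeR adjusted p = 0.00155).

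Set side by side by amino acid, the log2 fold change of the mitochondrial gene was below that of its cytosolic counterpart in 12 of 16 pairs. In 10 pairs this held in each of the 8 embryos of any genotype. The widest gap was that of alanine, where Aars1 rose and Aars2 fell, leaving a difference of -3.24 between their log2 fold changes. Their ratio of CPM per kb went from 4.20 at S1 to 39.7 at S3. Cysteine, with 1.04 for Cars1 and -1.01 for Cars2, serine, with 0.54 for Sars1 and -0.72 for Sars2, methionine, with 0.43 and -1.51, and tyrosine, with 0.36 and -1.63, were also split between a called rise and a called fall, the calls of Mars1 and Yars1 being lost by DESeq2 and without WT embryo 0, 1 or 5. The reverse order was found for isoleucine, leucine and phenylalanine in each of the 8 embryos, and tryptophan differed by 0.01.

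Summed over the genes of a compartment, the cytosolic synthetases measured 988, 804, 987 and 1195 CPM per kb at S1 in WT embryos 0, 1, 5 and 8 and 1196, 1259, 1216 and 1202 at S3. The mitochondrial ones measured 158, 143, 159 and 168 at S1 and 93.2, 103, 90.3 and 93.7 at S3. The mitochondrial sums of the stages were far apart, whereas the cytosolic sum of embryo 8 at S1 came up to the lowest one at S3, that of embryo 0. The ratio of both sums was 6.31 ± 0.608 (SD, n = 4) at S1 and 12.8 ± 0.512 at S3 in WT. It was 6.42 and 12.8 in Het and 6.88 and 13.51 in KO (n = 2 each), so that all 8 embryos showed the shift, from 5.64 to 7.12 at S1 to between 12.2 and 13.6 at S3.

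**Figure D2:**
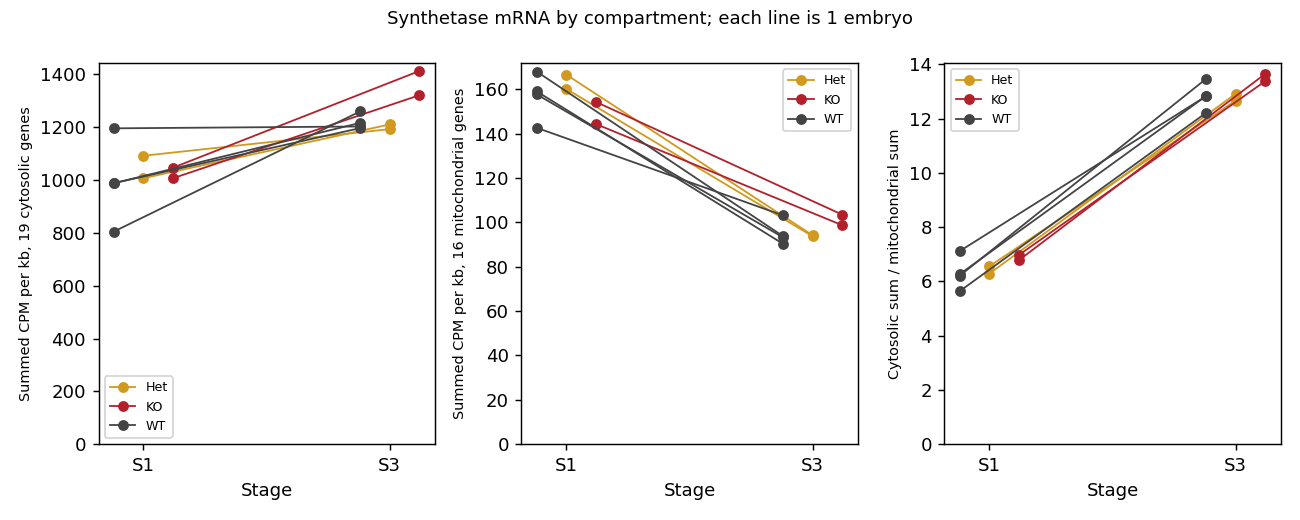
Summed CPM per kb of exon is plotted for the 19 cytosolic genes, for the 16 mitochondrial genes and as the ratio of both sums, at S1 and S3, with 1 line per embryo coloured by genotype. The mitochondrial sum falls in every embryo and the ratio rises from at most 7.12 at S1 to at least 12.2 at S3.

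Taken embryo by embryo, 12 of 16 mitochondrial genes (75%) were lower at S3 in all 8 embryos and 1 was higher in all 8, against 37.3% and 35.7% of 11107 genes with a mean above 1 CPM. Of the cytosolic genes, 5 were lower and 6 higher in all 8. The median change of the mitochondrial genes ran from -1.31 in WT embryo 8 to -0.61 in WT embryo 1. For the cytosolic genes it ran from -0.44 to 0.37 in the same embryos, and the median over all genes stayed between -0.08 and 0.02.

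Other parts of the translation machinery were counted for the same comparison. Of 15 tRNA charging partners, which include the scaffold proteins of the multisynthetase complex and the enzymes that finish mitochondrial charging, 8 were called lower and 0 higher, with a median of -0.53. Of 9 mitochondrial translation factors 4 were called lower and 1 higher (median -0.38), and of 5 cytosolic elongation factors 2 lower and 1 higher (median -0.24). Over all genes the shares were 35% lower and 30.6% higher. Of the marker lists, 7 of 7 neutrophil genes were called lower at S3, while 8 of 8 erythroid, 8 of 10 macrophage and 5 of 8 hepatoblast genes were called higher (medians 3.64, 1.93 and 1.44). The summed neutrophil level was 117 to 1200 CPM in WT at S1 and 1.00 to 4.76 at S3, with 1 of the 7 at 0 in all WT S3 libraries. The part of these cells in the synthetase changes was not tested.

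Whether loss of Nprl3 alters the synthetases was asked within each stage. At S3 every one of the 35 members had a log2 fold change above 0, from 0.01 to 0.53, but 0 members were called higher or lower by edgeR at an adjusted p under 0.05. By comparison 0.457% of 11804 genes were called higher and 0.102% lower. At an unadjusted p under 0.05, 3 of 35 members passed in edgeR, as did 1006 of 11804 genes, and DESeq2 called 1 member, Gars1, and 0.581% of all genes higher. The median log2 fold change was 0.19 for the cytosolic and 0.11 for the mitochondrial genes and 0.01 for all genes tested, of which 51.0% were above 0. When 1 embryo was left out, 28 to 34 members stayed above 0.

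**Figure D3:**
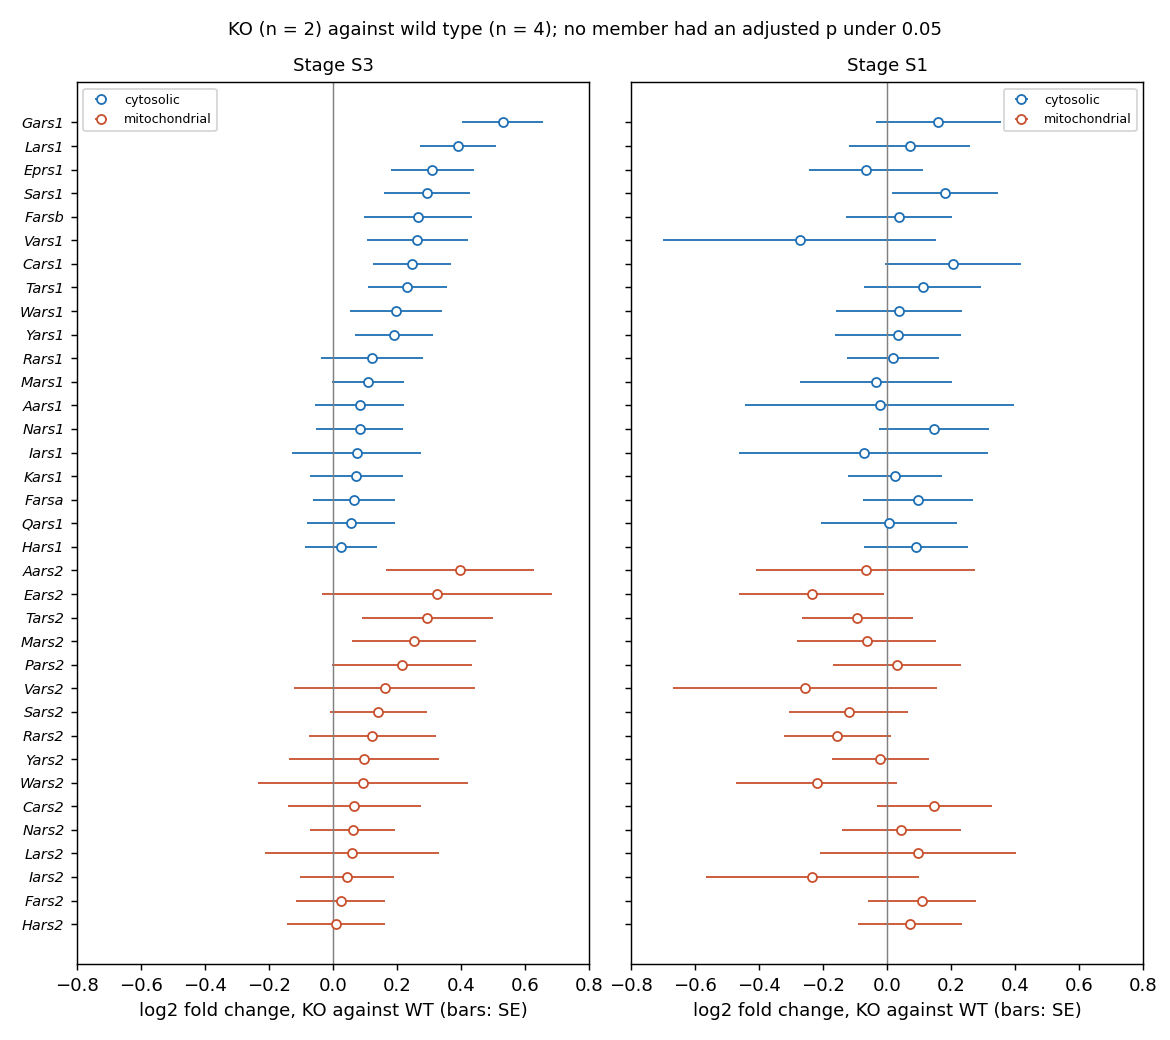
The log2 fold change in KO (n = 2) against WT (n = 4) is plotted for each synthetase at S3 and at S1, with standard errors as bars. At S3 all 35 points lie above 0, with Gars1 at 0.53, while at S1 they lie on both sides between -0.27 and 0.21.

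Gars1, which charges glycine tRNA in both compartments, had the smallest p. At S3 it measured 352, 374, 379 and 310 CPM in WT embryos 0, 1, 5 and 8, 351 and 364 in Het embryos 3 and 4, and 507 and 504 in KO embryos 2 and 9. The KO libraries lay close together and above the other 6. Its log2 fold change was 0.53 ± 0.127, or 1.44-fold, with an edgeR adjusted p of 0.168. DESeq2 gave an adjusted p of 0.0371, edgeR with the sex of the embryo in the fit 0.00727 and DESeq2 with sex 3.55e-06, and over all alternatives the value ranged up to 0.660.

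Lars1, for leucine, measured 122, 117, 116 and 106 CPM in WT, 106 and 121 in Het and 150 and 149 in KO at S3. Again the KO libraries stood above all others. The log2 fold change was 0.39 ± 0.119 (edgeR adjusted p = 0.303), and with sex in the fit the adjusted p was 0.0303 in edgeR and 0.00630 in DESeq2.

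Eprs1 measured 275, 286, 264 and 245 CPM in WT, 268 and 270 in Het and 355 and 301 in KO at S3. The groups did not overlap, but KO embryo 9 was only slightly above WT embryo 1. Eprs1 had a log2 fold change of 0.31 ± 0.130 (edgeR adjusted p = 0.555). Sars1 and Cars1 followed with 0.29 ± 0.134 and 0.25 ± 0.122 (edgeR adjusted p = 0.615 and 0.657), and with sex in the DESeq2 fit Eprs1 and Sars1 also passed, at 0.0444 and 0.0328.

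**Figure D4:**
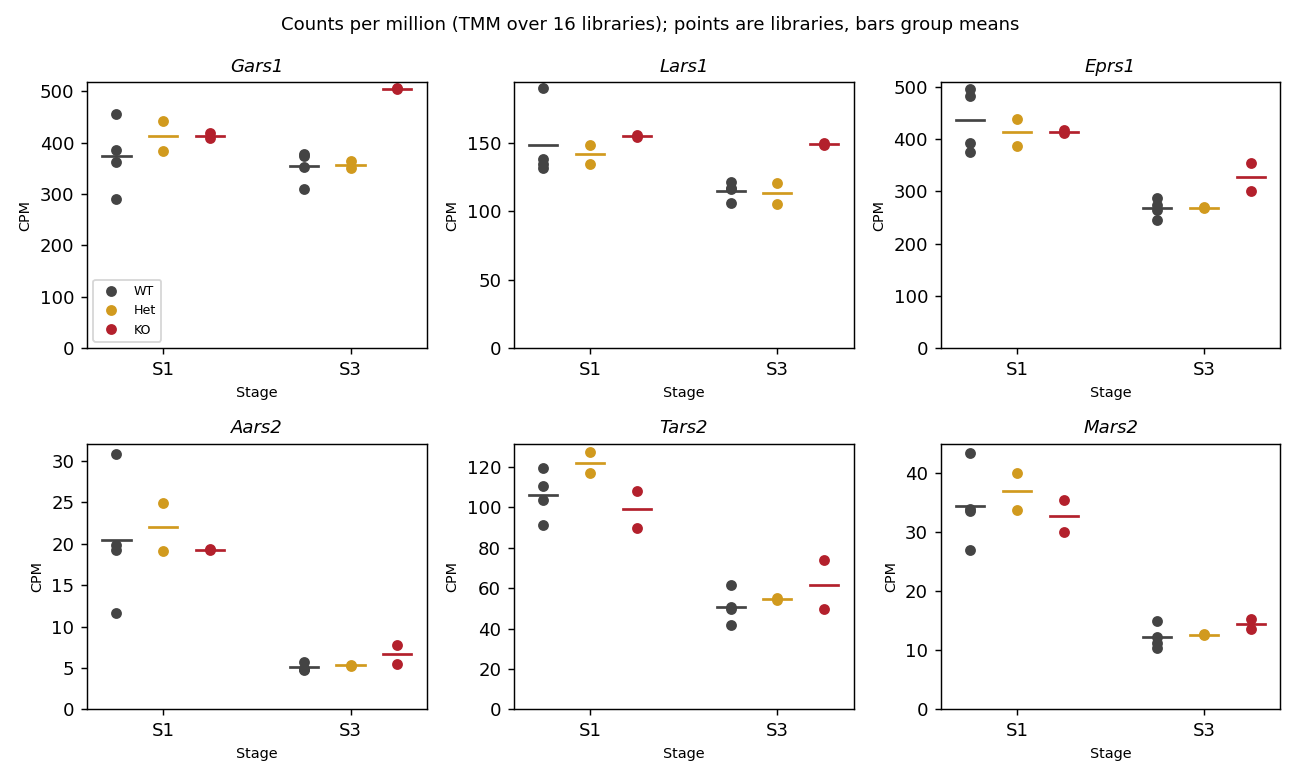
CPM is plotted for 3 cytosolic (Gars1, Lars1, Eprs1) and 3 mitochondrial (Aars2, Tars2, Mars2) synthetases at S1 and S3, with 1 point per library and a bar at the group mean. The 2 KO points of Gars1 at S3, 507 and 504, lie above every WT and Het point at that stage, whereas those of Aars2, Tars2 and Mars2 overlap WT.

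The 3 mitochondrial genes with the smallest p at S3 overlapped between the genotypes. Aars2 measured 4.81, 4.86, 5.78 and 4.90 CPM in WT, 5.29 and 5.41 in Het and 7.81 and 5.47 in KO, with a log2 fold change of 0.40 ± 0.231 (edgeR adjusted p = 0.729). Tars2 measured 49.5, 61.4, 50.9 and 42.0 CPM in WT, 54.2 and 55.1 in Het and 73.8 and 49.8 in KO, with 0.29 ± 0.205 (edgeR adjusted p = 0.816), or -0.028 without KO embryo 2. Mars2 measured 11.3, 14.96, 12.3 and 10.3 CPM in WT, 12.6 and 12.7 in Het and 15.3 and 13.6 in KO, with 0.25 ± 0.195 (edgeR adjusted p = 0.839). In each of these the higher KO value was that of embryo 2, and KO embryo 9 lay inside the WT range.

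Both KO libraries exceeded all 4 WT libraries at S3 for 9 of 35 members, all of them cytosolic (Gars1, Lars1, Eprs1, Sars1, Cars1, Tars1, Vars1, Yars1 and Mars1). Over all genes tested this was so for 9.1%, and 9.43% of genes were lower without overlap, as were 0 members. The count of 9 was 3 when low genes were kept in the scaling, 10 when the libraries were scaled within the comparison, 14 without KO embryo 2, 20 without KO embryo 9 and 9 to 13 without any 1 WT embryo. Over all genes the share was then 5.4%, 9.12%, 20.6%, 23.6% and 11% or more. The library of KO embryo 2 was the highest of the 8 S3 libraries for 18 of the 32 members with a mean above 5 CPM, and the library of WT embryo 8 was the lowest for 16 of them, against 19.1% and 20.8% of 7796 genes. Without embryo 8 the cytosolic median was 0.11, and the mitochondrial median was 0.27 without KO embryo 9, 0.20 without WT embryo 1, 0.033 without KO embryo 2, 0.056 without WT embryo 5 and 0.065 without WT embryo 8. Of the 5 members with the promoter motif, Gars1, Tars1 and Yars1 were among the 9, while Aars1 and Iars1, with log2 fold changes of 0.08 and 0.07, were not. The share wholly above WT was 60% of these 5, against 47.4% of the 19 cytosolic genes. Of the rest of the 9, Eprs1, Sars1 and Mars1 had a promoter window without the motif, and Lars1, Cars1 and Vars1 had no window. Whether the motif goes with the KO values was not tested.

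Of ATF4 and its targets, 3 of 19 tested genes (Trib3, Slc7a11 and Slc7a3) were called higher in KO at S3 and 0 lower, with a median of 0.84, against 0.457% and 0.102% of all genes. The list was chosen with earlier results of these data known, so this share is a description and no independent test. Trib3, a pseudokinase induced in amino acid stress, measured 12.7, 11.1, 15.2 and 9.65 CPM in WT and 58.4 and 53.5 in KO. Slc7a11, the cystine transporter, measured 1.99, 0.973, 1.08 and 1.61 CPM in WT and 18.8 and 14.98 in KO. Neither overlapped, and the log2 fold changes were 2.21 ± 0.181 and 3.60 ± 0.293 (edgeR adjusted p = 0.00428 for each), against at most 0.53 for any synthetase. Atf4 mRNA itself overlapped, with 284 to 454 CPM in WT and 297 and 443 in KO. At S1, 0 of 19 were called by edgeR, while 17 had log2 fold changes above 0 (median 0.29), 7 lay wholly above WT, against 6.58% of all genes, and 7 passed at an unadjusted p under 0.05.

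Of 11 interferon-induced genes tested, 7 were called higher in KO at S3 and 0 lower (median 2.81), against 0.457% and 0.102% of all genes. This list, too, was chosen with earlier results of these data known. Isg15, a ubiquitin-like protein, measured 21.6, 24.7, 63.3 and 21.8 CPM in WT and 1170 and 519 in KO. Its log2 fold change was 4.69 ± 0.494 (edgeR adjusted p = 0.0133), and that of the antiviral gene Rsad2 was 3.86 ± 0.445 (edgeR adjusted p = 0.0153). At S1, 0 of 12 were called by edgeR, while 12 had log2 fold changes above 0 (median 2.30), 9 lay wholly above WT, against 6.58% of all genes, and 10 passed at an unadjusted p under 0.05.

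Of 15 tRNA charging partners, 9 mitochondrial translation factors and 5 cytosolic elongation factors, 0 were called in KO at S3 by edgeR and 0 passed at an unadjusted p under 0.05. Their medians were 0.16, 0.13 and 0.06. The smallest p belonged to Trnt1, which adds the CCA end to tRNA, at 0.27 ± 0.134, and Qrsl1, a subunit of the mitochondrial glutamine amidotransferase, at 0.39 ± 0.232 (edgeR adjusted p = 0.656 and 0.739). In the other lists these were Gfm2 and Mtrf1, at 0.24 ± 0.144 and 0.41 ± 0.336 (edgeR adjusted p = 0.738 and 0.853), and Eef1b2 and Eef1g, at 0.23 ± 0.184 and 0.15 ± 0.143 (edgeR adjusted p = 0.854 and 0.886). The 10 macrophage markers lay lower in KO at S3, with 10 of 10 log2 fold changes below 0, a median of -1.39, 5 wholly below WT, 5 at an unadjusted p under 0.05 and 1, Marco, called, none at 0, and sums of 30.9 to 74.9 CPM in WT and 14.5 to 31.9 in KO. The 8 hepatoblast markers summed to 153 to 722 CPM in WT and 67.6 to 193 in KO, with none at 0, 8 of 8 log2 fold changes below 0, a median of -1.38, 5 wholly below WT and 5 at an unadjusted p under 0.05, though 0 called by edgeR. Over all genes 9.43% lay wholly below WT, 0.102% were called lower and 1006 of 11804 passed at an unadjusted p under 0.05. The macrophage markers Mrc1, Timd4 and C1qa were low, at 3.21 CPM or less in every S3 library. The 8 erythroid markers had 8 of 8 log2 fold changes below 0, with 0 called by edgeR and 0 at an unadjusted p under 0.05, and a median of -0.23. Of 5 megakaryocyte markers tested 4 lay above 0 (median 0.60) and 1 wholly below WT, with 0 called. Of 2 neutrophil markers tested 1 lay above and 1 below 0, with 0 called. KO embryo 9 held 3.70 CPM of the neutrophil gene Ngp, against 0 in the other S3 libraries. It held 26.2 CPM of the platelet gene Ppbp, against 0.256 in KO embryo 2 and 0.366 to 3.77 in WT. The part of cell composition in the synthetase values was not tested.

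At S1, 0 members were called between KO and WT by edgeR, 0 passed at an unadjusted p under 0.05, and 0 were called by DESeq2. Over 14039 genes 0% were called higher and 0.00712% lower. The log2 fold changes ran from -0.27 to 0.21, with a median of 0.04 for the cytosolic and -0.07 for the mitochondrial genes. Without WT embryo 8 these were 0.145 and 0.048, without WT embryo 1 they were -0.0012 and -0.14, and without WT embryos 0 and 8 they were 0.19 and 0.067. The smallest p belonged to Sars1 at 0.18 ± 0.165, Ears2 at -0.24 ± 0.227, Cars1 at 0.21 ± 0.212, Rars2 at -0.16 ± 0.168 and Wars2 at -0.22 ± 0.251, and the edgeR adjusted p was 1.00 for each. Gars1 measured 362, 290, 385 and 456 CPM in WT and 419 and 409 in KO, which lay inside the WT range. No member had both KO libraries above or below all WT libraries, against 6.58% and 3.28% of genes, but 8 members lay above without WT embryo 8, 8 without KO embryo 9 and 11 without WT embryos 0 and 8, when 10.7%, 22.3% and 16.4% of all genes did. In the same comparison the 7 neutrophil markers summed to 1462 to 1508 CPM in KO and 117 to 1200 in WT, with 7 of 7 log2 fold changes above 0 and 0 called. The median log2 fold change was -0.89 for the hepatoblast, -0.90 for the macrophage and -0.54 for the erythroid markers. Their part in the synthetase values was not tested.

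Whether the KO difference itself depended on the stage was tested as an interaction. Of 13485 genes 0.00742% were called higher and 0% lower, and of the members 0 were called by edgeR, 0 passed at an unadjusted p under 0.05 and 0 were called by DESeq2. The smallest p belonged to Eprs1, Gars1, Lars1, Tars2 and Ears2, at 0.37 ± 0.221, 0.37 ± 0.246, 0.32 ± 0.230, 0.38 ± 0.284 and 0.56 ± 0.419, with an edgeR adjusted p of 1.00 for each. The median was 0.12 for the cytosolic and 0.26 for the mitochondrial genes, and -0.02 and 0.09 without embryo 8. The larger KO difference of Gars1 and Lars1 at S3 than at S1 was thus not shown to differ between the stages.

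The Het embryos addressed the dose of Nprl3, and share their WT controls with the KO comparisons. At S3, 0 members were called by edgeR, 0 at an unadjusted p under 0.05 and 0 by DESeq2, and of 11746 genes 0% were called higher and 0% lower. The medians were 0.00 for the cytosolic and 0.05 for the mitochondrial genes. When 1 embryo was left out, the cytosolic median ran from -0.036, without WT embryo 8, to 0.017, without Het embryo 3. The mitochondrial median ran from -0.0054, without WT embryo 8, to 0.10, without WT embryo 1. Gars1 and Lars1, the leading members in KO, had log2 fold changes of 0.01 ± 0.123 and -0.03 ± 0.121 in Het at S3 (edgeR adjusted p = 0.994 and 0.960). In the same comparison 8 of 8 hepatoblast markers lay below 0 (median -0.97), 3 of them wholly below WT, against 6.27% of genes. Below 0 were also 10 of 10 macrophage (median -0.21), 5 of 5 megakaryocyte (-0.41) and 4 of 8 erythroid markers (-0.04), with 0 wholly below WT. The part of these cells in the synthetase values was not tested.

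Iars1, for isoleucine, had the smallest p in Het at S3. It measured 172, 120, 126 and 161 CPM in WT and 115 and 128 in Het, which overlapped, with a log2 fold change of -0.26 ± 0.171 (edgeR adjusted p = 0.901). A fit that also held the sex of the embryo called it lower, edgeR giving -0.46 with an adjusted p of 0.0102 and DESeq2 -0.44 with 0.00206. The same edgeR fit called 8.84% of all genes higher and 9.25% lower. Both Het embryos were male, like WT embryos 0 and 8. Fars2, Nars1, Qars1 and Vars1 followed with -0.17 ± 0.130, -0.16 ± 0.128, -0.17 ± 0.130 and -0.15 ± 0.153 (edgeR adjusted p = 0.901 for each). Hars1 lay above and Fars2 below all WT libraries in both Het libraries, against 6.86% and 6.27% of genes.

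At S1 the Het group gave 0 members called by edgeR, 1 at an unadjusted p under 0.05 (589 of all genes) and 0 by DESeq2, and 0% of 13818 genes were called higher and 0% lower. The medians were 0.06 for the cytosolic and 0.10 for the mitochondrial genes. When 1 embryo was left out, the cytosolic median ran from -0.027, without WT embryo 1, to 0.12, without WT embryo 8, and the mitochondrial median from -0.013, without Het embryo 3, to 0.13, without Het embryo 4. The 1 member was Lars2, the mitochondrial enzyme for leucine, with 152, 106, 144 and 85.3 CPM in WT, 76.6 and 65.1 in Het and 98.4 and 161 in KO. Both Het values lay below all others, and the log2 fold change was -0.80 ± 0.277 (edgeR adjusted p = 0.905). Pars2 for proline, Tars2, Farsa and Kars1 came next, at 0.34 ± 0.181, 0.20 ± 0.162, 0.20 ± 0.165 and 0.16 ± 0.141 (edgeR adjusted p = 0.905 for each). Both Het libraries lay above all WT libraries for 8 members and below for 1, against 10.5% and 8.19% of genes. In the same comparison the median was -2.01 for the hepatoblast, -2.60 for the megakaryocyte, -1.58 for the macrophage and -1.09 for the erythroid markers, with both Het libraries below WT for 5 of 8, 3 of 5, 2 of 9 and 2 of 8 of them. It was 0.97 for the neutrophil markers, with 2 of 7 above WT in both Het libraries. Their part in the synthetase values was not tested.

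The S1 libraries of 1 genotype also differed from each other in a set of synthetases. Among the 4 WT embryos the highest S1 value was 1.44 times the lowest for the median member, but over 2 times for Aars1, Vars1, Vars2, Iars1, Aars2 and Iars2, that is, for both the cytosolic and the mitochondrial enzymes of alanine, valine and isoleucine. In all 6, embryo 8 was highest and embryo 1 lowest. Vars1 measured 251, 145, 225 and 502 CPM in WT embryos 0, 1, 5 and 8, 293 and 198 in Het and 223 and 235 in KO. Iars1 measured 191, 112, 182 and 350 CPM in WT, 208 and 157 in Het and 175 and 217 in KO.

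Embryo 8 had the highest S1 value for 20 of 35 members and embryo 1 the lowest for 25. At S3 the same genes varied less, with Vars1 at 319, 232, 271 and 320 CPM and Iars1 at 172, 120, 126 and 161 CPM in WT. Deviations of the libraries from the stage mean went with exon length in several libraries, with a Spearman rho across genes of 0.53 in embryo 8 at S1 and -0.57 in Het embryo 4 at S1, but of -0.03 in WT embryo 1. At S3 rho was 0.51, -0.38, -0.30 and 0.39 in WT embryos 0, 1, 5 and 8. It was -0.44 and -0.40 in Het embryos 3 and 4, and -0.29 and 0.40 in KO embryos 2 and 9. The part of exon length in the KO values at S3 was not tested. The RNA had been amplified before library preparation. The part of exon length, and of the globin and Mpo levels of embryo 8, in the spread of these genes was not tested. Of the exon bases of Iars2, 22.9% are shared with Rab3gap2 on the opposite strand, and of Aars1 14.3% with Exosc6 on the same strand, where read pairs were not counted.

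**Figure D5:**
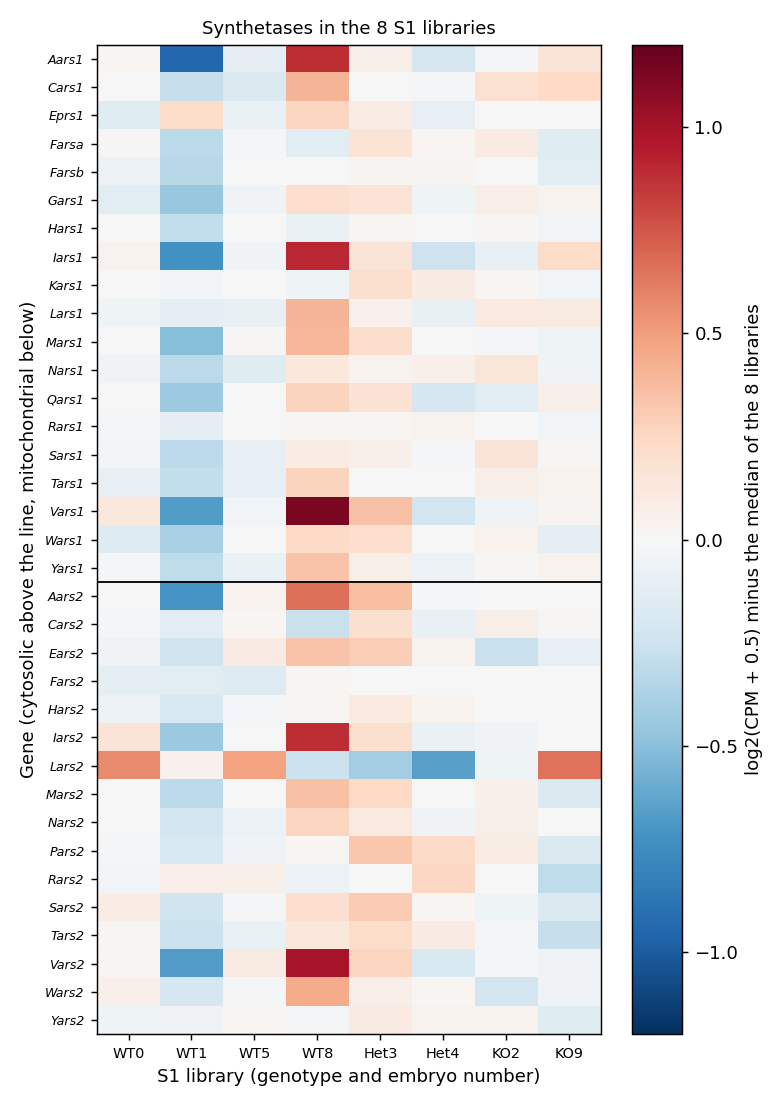
The heat map shows log2(CPM + 0.5) minus the median of the 8 S1 libraries for the 35 synthetases, cytosolic above the line and mitochondrial below, with 1 column per library. WT embryo 8 is high and WT embryo 1 low for Aars1, Vars1, Iars1, Aars2, Vars2 and Iars2, while Lars2 is low in WT embryo 8 and in both Het embryos.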

How the data were processed

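RNA of sorted cells was amplified, enriched for poly(A) and sequenced. The authors deposited raw counts of read pairs for each gene, made with STAR 2.7.9 on the mm39 build and featureCounts 1.6.4. The header shows that strand was ignored, and pairs that fit several genes were left out, so Hars1 and Hars2, which overlap, and Mars1 and Ddit3 are uncertain, as are the others among the 13 members that share exon bases with another gene. Groups and embryo numbers came from the sample titles. Of 20 library columns, 4 match no sample analysed here and were not used, and 54749 of 55416 genes had a GENCODE symbol.

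Genes with a mean above 10 normalized counts were tested with TMM scaling and edgeR 4.0.16 (quasi-likelihood, no covariates) in R 4.3.3, adjusted by Benjamini-Hochberg over all genes tested, with a threshold of 0.05. DESeq2 1.42.0 was an alternative. CPM were scaled by TMM over the 16 libraries on genes above the same minimum, a choice made after seeing the counts of members whose groups did not overlap, which it changed (10 with scaling within the comparison, 3 with all genes, 9 as chosen). Leaving out WT embryos 0 and 8 together was also added after seeing the data. Changes within an embryo used log2(CPM + 0.5). Counting error, taken as 1 over the root of the count, was 9.39% to 14.7% of the value in WT at S3 for Ears2, Wars2, Vars2, Aars2 and Pars2, with 20 to 165 counts a library, and for Aars2 (9.91%) exceeded the SD between embryos (9.15%). The smallest p of an exact permutation test of 2 against 4 libraries is 0.0667, so none was used.

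The members and lists were chosen with earlier results of these data known. Members were named in full where an adjusted p was under 0.05 (at most the 8 with the largest change), otherwise the 5 with the smallest p, together with the 3 smallest p per compartment in KO at S3, Gars1, Kars1, Farsa, Farsb and the pairs by amino acid. Other lists were given by counts and the 2 smallest p, and members beyond this rule were named after their values were seen. The S1 and S3 libraries of an embryo share 1 animal, which pairs them. Over 13514 genes, how far each lay from its group mean correlated between the stages at 0.05, 0.29, 0.41 and 0.41 in WT embryos 0, 1, 5 and 8, at 0.54 in KO embryos and at 0.07 in Het embryos. The scripts were tested on simulated counts. No RefSeq window was used for the other 9 members, and no protein sequence is shown. Some items are not reported here.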

Additional observations from a re-analysis of the deposited data

Results flagged for a closer look

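Dixon's ratio, the gap of the farthest sample over the range of the group, was computed for the 35 members in the 4 WT libraries of each stage, and passed its 95% critical value for 4 samples in 4 of 70 groups, where chance flags about 1 in 20. Lars1 in WT at S1 gave 0.892, with 190 CPM in embryo 8 against 132 to 138 in the others. Yars1 in WT at S3 gave 0.892, with 195 CPM in embryo 8 against 221 to 224. Aars2 in WT at S3 gave 0.908, with 5.78 CPM in embryo 5 against 4.81 to 4.90. Wars2 in WT at S3 gave 0.879, with 6.30 CPM in embryo 1 against 3.12 to 3.51.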

How the results depend on the processing

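Of 761 values of called or named members under the alternatives, 733 kept their direction and their side of the threshold, 9 passed it in addition, 17 no longer passed it and 2 turned direction. The 17 were all calls between stages. Mars1 and Yars1 were lost with DESeq2 and without WT embryo 0, 1 or 5, Yars1 also by DESeq2 with sex, Mars1, Yars1 and Lars1 with no filter, Lars1 also without embryo 0, 5 or 8, and Lars1 and Wars2 without embryos 0 and 8. The 2 were Tars2 in KO at S3, -0.028 without KO embryo 2 and -0.028 to 0.56 over the embryos left out, and Vars1 in Het at S3, 0.038 without WT embryos 0 and 8, when only female WT embryos remained beside male Het embryos. In KO at S3 the members called higher numbered 1 by DESeq2, 2 by edgeR with sex and 4 by DESeq2 with sex, against 0, while over all genes 136, 285 and 298 were called higher, against 54. In Het at S3, 1 was called lower by edgeR with sex and by DESeq2 with sex, and the mitochondrial median was 0.19 by DESeq2 with sex. Members lying wholly above WT in KO at S3 numbered 3 with no filter, against 9, and at S1 3 with scaling within the comparison, 2 with no filter, 2 with relative log expression scaling and 11 without WT embryos 0 and 8, against 0. Without those embryos the medians were 0.12 (cytosolic) and -0.83 (mitochondrial) between stages, and -0.084 and -0.033 for the interaction. Leaving out 1 embryo gave 9 to 20 members above WT at S3 and 0 to 8 at S1, medians of 0.11 to 0.26 (cytosolic) and 0.033 to 0.27 (mitochondrial) in KO at S3, -0.21 to 0.093 and -1.19 to -0.93 between stages, and -0.017 to 0.20 and 0.093 to 0.33 for the interaction. With the embryo as a block, since both libraries come from 1 animal, 25 members were called between stages, the 24 and Iars1, with medians of -0.08 and -1.07, and the interaction again gave 0. Between stages 22 members were called by DESeq2, 21 with no filter, 27 by edgeR with sex (gaining Iars1, Qars1 and Hars2) and 26 with all 16 libraries in the fit (gaining Qars1 and Hars2). The cause of these shifts was not tested. Het and KO held only 2 embryos each, and how far this number limited the calls was not tested.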

Other observations

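Lars2 varied between libraries of 1 genotype at S3 as well as at S1. At S3 it measured 171, 144, 133 and 215 CPM in WT embryos 0, 1, 5 and 8, 133 and 163 in Het embryos 3 and 4, and 118 and 225 in KO embryos 2 and 9, so that the lowest and the highest of the 8 were the 2 KO libraries. Without Lars2 the ratio of the summed cytosolic to the summed mitochondrial CPM per kb was 6.05 to 7.46 at S1 and 13.98 to 16.2 at S3 in WT, against 5.64 to 7.12 and 12.2 to 13.47 with it.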
